A study of Mus musculus with 6 samples.

Results

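Ground-2 and Space-2 are the 2 of 6 RNA-seq libraries of mouse germline stem (GS) cells in which the genes encoded by mitochondrial DNA took the largest share of the counts. GS cells are cultured spermatogonia with stem cell activity. Storage site was set aside, and these 2 libraries were compared with the other 4, Ground-1, Ground-3, Space-1 and Space-3. The pair was picked from the counts themselves and no label joins the 2 libraries, although both carry the number 2 in their titles. Every difference between the pair and the other 4 is therefore a description without a test.

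All 6 libraries came from cells labelled spermatogonia, of testicular origin, established from DBA/2 mice 2 to 3 days old that carried an EGFP transgene, written DBA/Tg14(act-EGFP-OsbY01) in the labels. Per the methods of the study the transgene had been bred from C57BL6 into DBA/2. The 3 Space libraries were from cells frozen for 6 months on the International Space Station (ISS), and the 3 Ground libraries from cells frozen for 6 months on Earth. The study cultured GS cells with GDNF and FGF2 on mouse embryonic fibroblasts (MEF) and analysed the RNA the day after thawing without a passage. In each of the 6 libraries the title and the treatment label name opposite storage sites. The names used here follow the titles, so the sign of each Space minus Ground difference depends on them, while the comparison of the pair with the other 4 does not.

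The mitochondrial genome carries 13 protein-coding genes, all for subunits of oxidative phosphorylation. They encode 7 subunits of complex I (the mt-Nd genes), the cytochrome b of complex III (mt-Cytb), 3 subunits of complex IV (the mt-Co genes) and 2 subunits of ATP synthase (mt-Atp6 and mt-Atp8). Both strands are transcribed as long precursors that are cut largely at the tRNAs, and most of the mRNAs are polyadenylated inside the organelle. The remaining subunits of these complexes are encoded by nuclear genes and imported. Stem cell spermatogonia are known for a metabolism with much glycolysis, and mitochondria mature as germ cells differentiate.

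Nuclear DNA also holds old copies of mitochondrial DNA, and a read from a copied stretch matches both places. Nuclear transcript sequences of GENCODE M21 (GRCm38) were therefore compared with those of chromosome M, the 13 genes among them. There were 7 annotated pseudogenes with at most 0.5% mismatched bases, all on the minus strand of chr1:24611535-24616197, and 5 of the 7 had no mismatch. They followed one another in the order of the genes on chromosome M, with the spacing shifted by no more than 1 base. The first 120 bases of mt-Co2 (chrM:7013-7696, plus strand) are shown with those of its copy on chromosome 1, Gm28661 (chr1:24614885-24615565, minus strand), and of a less similar copy on chromosome 2, Gm13341 (chr2:22587291-22587962, minus strand), because mt-Co2 was counted far less than its neighbour mt-Co1. Capitals mark bases that differ from mt-Co2, which are C25T and G57A counted from the first base of the gene, with the mitochondrial base first.
mt-Co2: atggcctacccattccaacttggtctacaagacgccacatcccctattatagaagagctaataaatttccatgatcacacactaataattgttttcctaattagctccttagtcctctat
Gm28661: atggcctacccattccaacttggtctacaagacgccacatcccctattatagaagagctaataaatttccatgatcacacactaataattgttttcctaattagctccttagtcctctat
Gm13341: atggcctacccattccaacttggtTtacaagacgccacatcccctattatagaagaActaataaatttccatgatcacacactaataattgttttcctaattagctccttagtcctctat
The copy on chromosome 1 cannot be told from mt-Co2 over these bases. The start of mt-Nd3 (chrM:9459-9806, plus strand) is shown with its copy Gm28438 (chr1:24612775-24613119, minus strand), which holds the single mismatch T3C in 345 aligned bases.
mt-Nd3: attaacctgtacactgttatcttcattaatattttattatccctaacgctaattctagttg
Gm28438: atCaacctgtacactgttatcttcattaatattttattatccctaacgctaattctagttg

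The 13 mitochondrial genes took 11.51% of the counts in Ground-2 (95% Wilson interval 11.49 to 11.52) and 7.12% in Space-2 (7.11 to 7.14). The share was 3.09% in Ground-1 (3.09 to 3.10), 5.69% in Ground-3 (5.69 to 5.70), 2.51% in Space-1 (2.502 to 2.514) and 2.81% in Space-3 (2.80 to 2.82). Both libraries of the pair lay above all others, and the mean of the pair was 5.79 percentage points above the mean of the other 4. Space-2 stood nearer to Ground-3, the highest of the other 4, than to Ground-2.

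The pair also had the fewest counts. The totals were 19930234 in Ground-2 and 19015985 in Space-2, and 23218122 to 24110916 in the other 4. Nuclear genes alone gave 17636802 and 17661292 counts in the pair and 21895865 to 23506250 in the others, so the pair was lowest with the mitochondrial counts removed as well. At least 1 count was found for 19528 genes in Ground-2 and 19540 in Space-2, just under the lowest of the other 4, which ran from 19543 to 20316. The part of total depth in the results was not tested.

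Levels below are CPM, each count relative to the size of its library, with library sizes scaled by TMM (trimmed mean of M-values). A difference is the mean log2 CPM of the pair minus that of the other 4, with 2 counts added before the logarithm. A gene was apart when both libraries of the pair lay above, or both below, all of the other 4. All 13 mitochondrial genes were apart and higher, where 10% of the 15091 nuclear genes past the filter were apart and higher. This is the contrast that defined the pair, so nothing is read from the count. The differences ran from 1.01 for mt-Nd5 to 1.75 for mt-Atp8 with a median of 1.59, which corresponds to 2.01-fold and 3.36-fold at the ends.

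**Figure D1:**
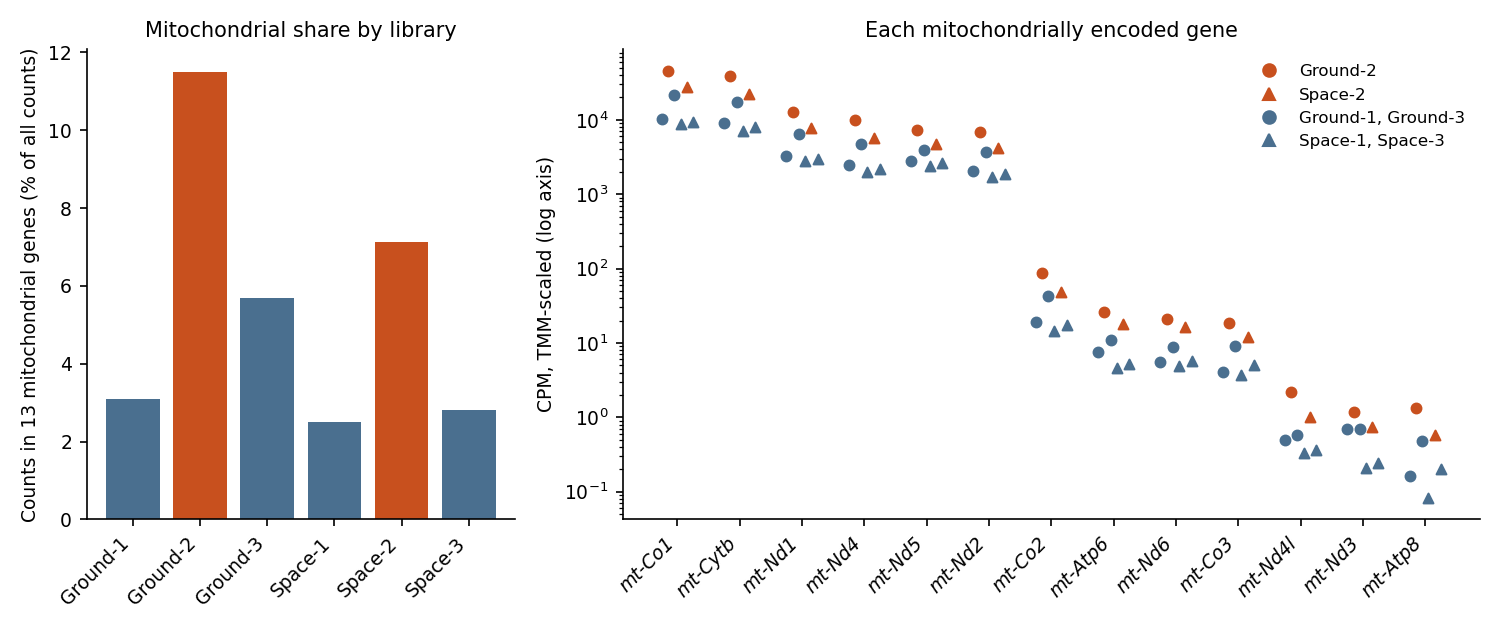
Left, percentage of all counts in the 13 mitochondrial genes as 1 bar per library. Right, CPM of each gene on a log axis, with circles for Ground and triangles for Space libraries and orange for Ground-2 and Space-2. Ground-2 and Space-2 reach 11.51% and 7.12%, and lie above the other 4 libraries for each of the 13 genes.

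mt-Co1 of complex IV and mt-Cytb of complex III had the highest counts. mt-Co1, which encodes the catalytic subunit of cytochrome c oxidase, stood at 45906 CPM in Ground-2 and 27240.3 in Space-2. In the other libraries it stood at 10247 in Ground-1, 21489.7 in Ground-3, 8886 in Space-1 and 9311 in Space-3. The difference was 1.61, and Ground-3 lay between Space-2 and the remaining 3. mt-Cytb was at 39233 CPM in Ground-2 and 22480.5 in Space-2, against 8958, 17601, 7151 and 7918 in Ground-1, Ground-3, Space-1 and Space-3, and again Ground-3 was the nearest. Its difference was also 1.61. Together these 2 genes, with mt-Nd1, mt-Nd2, mt-Nd4 and mt-Nd5, made up 99.9% of the mitochondrial counts even in the library where they held least.

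The complex I genes were higher in the pair by different amounts. mt-Nd1 was at 12825 CPM in Ground-2 and 7775 in Space-2, and at 3274, 6533, 2764 and 3014 in Ground-1, Ground-3, Space-1 and Space-3, with a difference of 1.45. mt-Nd4 was at 9887 and 5717 CPM in the pair and at 2436, 4663, 1982 and 2177 in the others, with a difference of 1.51. mt-Nd2 was at 6899.5 and 4182 CPM and at 2039, 3656, 1720.2 and 1845.5, with a difference of 1.28. In none of these 3 genes did the pair overlap the other libraries.

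mt-Nd5, the longest of the 13, had the smallest difference, 1.01, with 7204 CPM in Ground-2 and 4696 in Space-2 and 2798, 3952, 2369 and 2666 in the other 4. Its part of the mitochondrial counts was smaller in the libraries with more of them. It held 5.90% of the mitochondrial counts in Ground-2, 6.51% in Space-2 and 6.82% in Ground-3, but 9.39% in Ground-1, 9.52% in Space-1 and 9.89% in Space-3. Set against mt-Co1, mt-Nd5 had 0.157 counts per mt-Co1 count in Ground-2 and 0.172 in Space-2, and 0.184 to 0.286 in the others. mt-Nd2 moved the same way, with 5.65% and 5.79% of the mitochondrial counts in the pair and 6.31% to 6.91% elsewhere. mt-Co1 went the other way, at 37.6% and 37.7% in the pair and 34.4% to 37.1% in the others.

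The other 7 genes were counted far less. mt-Co2, the subunit that takes electrons from cytochrome c, was at 87.4 CPM in Ground-2 and 48.3 in Space-2, and at 19.02, 42.6, 14.3 and 17.3 in Ground-1, Ground-3, Space-1 and Space-3. mt-Atp6, which forms part of the proton channel of ATP synthase, was at 25.9 and 18.0 CPM in the pair and 4.61 to 11.004 in the others. mt-Nd6, the only one of the 13 encoded on the opposite strand, was at 20.7 and 16.2 CPM against 4.90 to 8.72. mt-Co3 was at 18.6 and 11.9 CPM against 3.71 to 9.16. The differences of these 4 were 1.61, 1.68, 1.59 and 1.52, close to that of mt-Co1 in spite of the far lower level. mt-Atp8, mt-Nd4l and mt-Nd3 rested on few reads, with 2 to 41 counts per library, and mt-Nd3 was separated narrowly, at 14 counts and 0.746 CPM in Space-2 and 16 counts and 0.701 CPM in Ground-3.

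Per kilobase of gene, the mean level over the 6 libraries was 15055 CPM for mt-Cytb and 13277 for mt-Co1, 6302 for mt-Nd1, 3266 for mt-Nd2, 3249 for mt-Nd4 and 2164 for mt-Nd5. It was 55.8 CPM per kilobase for mt-Co2, 19.8 for mt-Nd6, 17.7 for mt-Atp6 and 11.2 for mt-Co3, and 2.78, 2.33 and 1.80 for mt-Nd4l, mt-Atp8 and mt-Nd3. The level per kilobase of mt-Co1 was thus 238 times that of mt-Co2 and 7364 times that of mt-Nd3. Of the 7 genes with low levels, 5 lay almost wholly in the copies described above, with 99.56% of the bases of mt-Co2 and of mt-Atp6, 99.87% of mt-Co3, 99.14% of mt-Nd3 and 98.99% of mt-Nd4l. Of mt-Atp8, 21.08% lay in an annotated copy. The other 161 bases fell in a stretch of 233 bases between the copies of mt-Co2 and mt-Atp6, which has the same length on chromosome 1 as on chromosome M.

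The 6 genes with high levels were covered less. mt-Nd4 had 63.57% of its bases in a copy and mt-Co1 31.26%, whereas mt-Nd1, mt-Nd2, mt-Nd5 and mt-Cytb had none. mt-Nd6 had a low level and no copy this similar. The handling of reads that match several places was not given in the sources used here, and the part of the copies in the low counts was not tested. The counts of the 5 genes without such a copy (mt-Nd1, mt-Nd2, mt-Nd5, mt-Nd6 and mt-Cytb) alone set the pair apart, at 6.24% in Ground-2 and 3.86% in Space-2 against 1.77%, 3.12%, 1.41% and 1.61% in Ground-1, Ground-3, Space-1 and Space-3.

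**Figure D2:**
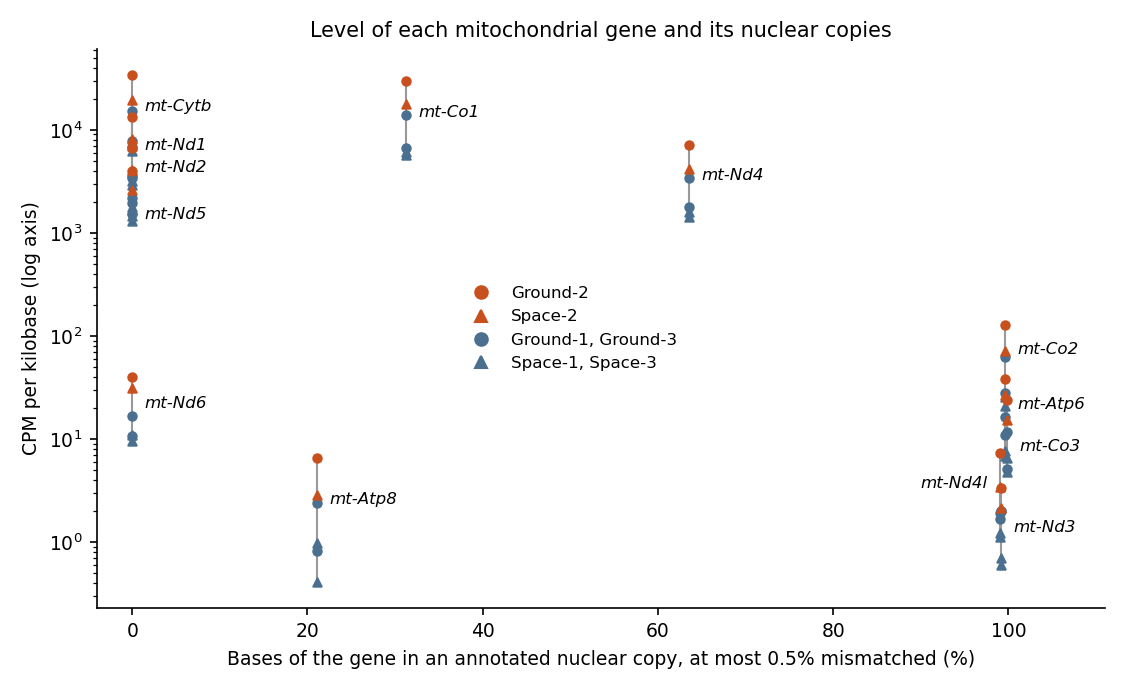
Count level of the 13 mitochondrial genes in CPM per kilobase (log axis, 1 point per library) against the percentage of each gene's bases that lie in an annotated nuclear copy with at most 0.5% mismatched bases. The 5 genes near 99% on the horizontal axis have mean levels of 1.80 to 55.8, and the 6 genes with mean levels of 2164 or more are covered by 63.57% or less, with mt-Nd6 and mt-Atp8 low at 0% and 21.08%.

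The higher mitochondrial level was present within each storage site. This direction follows from how the pair was picked, since it holds the library with the highest mitochondrial share of each site. Ground-2 lay above the mean of Ground-1 and Ground-3 by a median of 1.57 over the 13 genes, and Space-2 above the mean of Space-1 and Space-3 by a median of 1.46. For mt-Co1 the 2 values were 1.63 and 1.58, for mt-Cytb 1.64 and 1.58, and for mt-Nd5 1.12 and 0.90. Of the nuclear genes, 0 were higher in the pair by as much as the median of the mitochondrial genes, and 43 by as much as mt-Nd5. In the other direction 4 were lower by at least the same median, among them the anti-Mullerian hormone gene Amh at -1.89 with 1 to 23 counts per library, and 30 by at least the difference of mt-Nd5, all of these with means of 1.59 CPM or less.

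Nuclear genes for the same complexes were not higher in the pair as a group. Over 78 nuclear genes for subunits and cytochrome c the median difference was -0.05, beside 0.0035 for all nuclear genes. All 78 stayed within 0.5 of 0, as did most nuclear genes, with percentiles 5 and 95 at -0.34 and 0.44. It was negative for 57 of the 78, where 49% of nuclear genes had a negative and 51% a positive difference. Both libraries of the pair were above all others for 2 of the 78, where 10% of nuclear genes were, and below all others for 8, where 10.5% were. The median was -0.04 over 37 genes of complex I, -0.03 over the 4 genes of complex II, which is wholly encoded in the nucleus, -0.08 over 9 genes of complex III, -0.03 over 12 genes of complex IV and -0.05 over 16 genes of ATP synthase. Within Ground the median of the 78 was -0.05 and within Space it was -0.05.

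Individual subunits showed the same. Cox4i1, a nuclear subunit of complex IV, was at 421 CPM in Ground-2 and 406 in Space-2, and at 402, 422, 396 and 398 in Ground-1, Ground-3, Space-1 and Space-3, so that the pair lay inside the range of the others. Ndufv1, which carries the NADH-binding site of complex I, was at 273 and 249 CPM in the pair and 235 to 259 in the others. Sdha, the flavoprotein of complex II, was at 330 and 322 CPM against 320 to 327. Atp5b, the catalytic beta subunit of ATP synthase, was below all others at 1024 and 1028 CPM against 1052 to 1265, with a difference of -0.16. Uqcrc1, a core subunit of complex III, was likewise below, at 187 and 184 CPM against 191 to 199. The members apart and higher were Cox7a2l, at 95.5 and 96.6 CPM against 79.5 to 95.3, and Cycs, the gene of cytochrome c, at 59.7 and 60.4 against 57.3 to 58.5. The largest difference in size among the 78 was -0.27, in Ndufa1.

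The ratio of mitochondrial to nuclear subunits differed accordingly. For complex IV, the summed CPM of the 3 mitochondrial genes divided by that of the 12 nuclear genes, cytochrome c included, was 28.7 in Ground-2 and 17.4 in Space-2, and 6.59, 12.7, 5.44 and 6.00 in Ground-1, Ground-3, Space-1 and Space-3. For complex III the ratio was 42.0 and 24.9 in the pair and 6.96 to 17.1 in the others, and for complex I 14.4 and 9.07 against 3.33 to 6.88. Space-2 exceeded the highest of the other libraries, Ground-3, by 1.32-fold for complex I, 1.46-fold for complex III and 1.37-fold for complex IV. These ratios compare libraries, since the sums are not corrected for gene length.

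The genes that copy, transcribe and process mitochondrial DNA and RNA had differences near 0. The 21 genes for its maintenance and transcription had a median of 0.04, with 2 (9.52%) apart and higher and 1 (4.76%) apart and lower, beside the 10% and 10.5% of all nuclear genes. Polrmt, the mitochondrial RNA polymerase, was apart and lower, at 83.4 CPM in Ground-2 and 80.5 in Space-2 against 85.4 to 91.1, a difference of -0.10. Tfam, which packages the DNA and starts transcription, was at 51.0 and 52.3 CPM against 50.4 to 57.9. Top1mt, the mitochondrial topoisomerase, was apart and higher with 43.2 and 42.7 CPM against 32.9 to 40.2. Twnk, the helicase, was at 80.0 and 91.8 CPM, so that Ground-2 lay just under and Space-2 inside the 80.6 to 109 of the other 4.

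Of 26 genes for mitochondrial RNA processing and decay, 1 (3.85%) was apart and higher and 4 (15.4%) were apart and lower, beside 10% and 10.5% of all nuclear genes, with a median of -0.04. Pnpt1, the mitochondrial polynucleotide phosphorylase that degrades RNA, had the lowest difference, -0.26. It was at 48.7 CPM in Ground-2 and 52.1 in Space-2 against 60.8, 61.4, 61.5 and 57.5 in Ground-1, Ground-3, Space-1 and Space-3. Fastk was also apart and lower, at 49.5 and 47.3 CPM against 51.0 to 64.8. Mtpap, the mitochondrial poly(A) polymerase, was at 17.0 and 17.6 CPM against 18.4 to 21.4. Lrpprc, which stabilises mitochondrial mRNAs, was at 239 and 246 CPM, inside the 221 to 253 of the others.

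The 78 mitochondrial ribosomal protein genes had a median of 0.02, with 7 (8.97%) apart and higher and 2 (2.56%) apart and lower, beside 10% and 10.5% of all nuclear genes. Mrps16, the small-subunit protein, was among the higher ones, at 80.3 and 78.6 CPM against 67.6 to 72.2. The 15 regulators of mitochondrial biogenesis had a median of 0.02 and 2 members apart and lower, Yy1 and Gabpb1. The 23 genes for import and proteostasis had a median of -0.02, and the 18 genes for dynamics and mitophagy 0.02. In the former, the protease gene Htra2 was lowest, at 16.7 and 17.5 CPM against 18.6 to 27.96. In the latter, Optn, an autophagy receptor, had the largest difference, 0.60, at 30.03 and 26.8 CPM against 17.1 to 20.5. The TCA cycle (18 genes) and glycolysis (19 genes) had medians of -0.02 and 0.01.

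**Figure D3:**
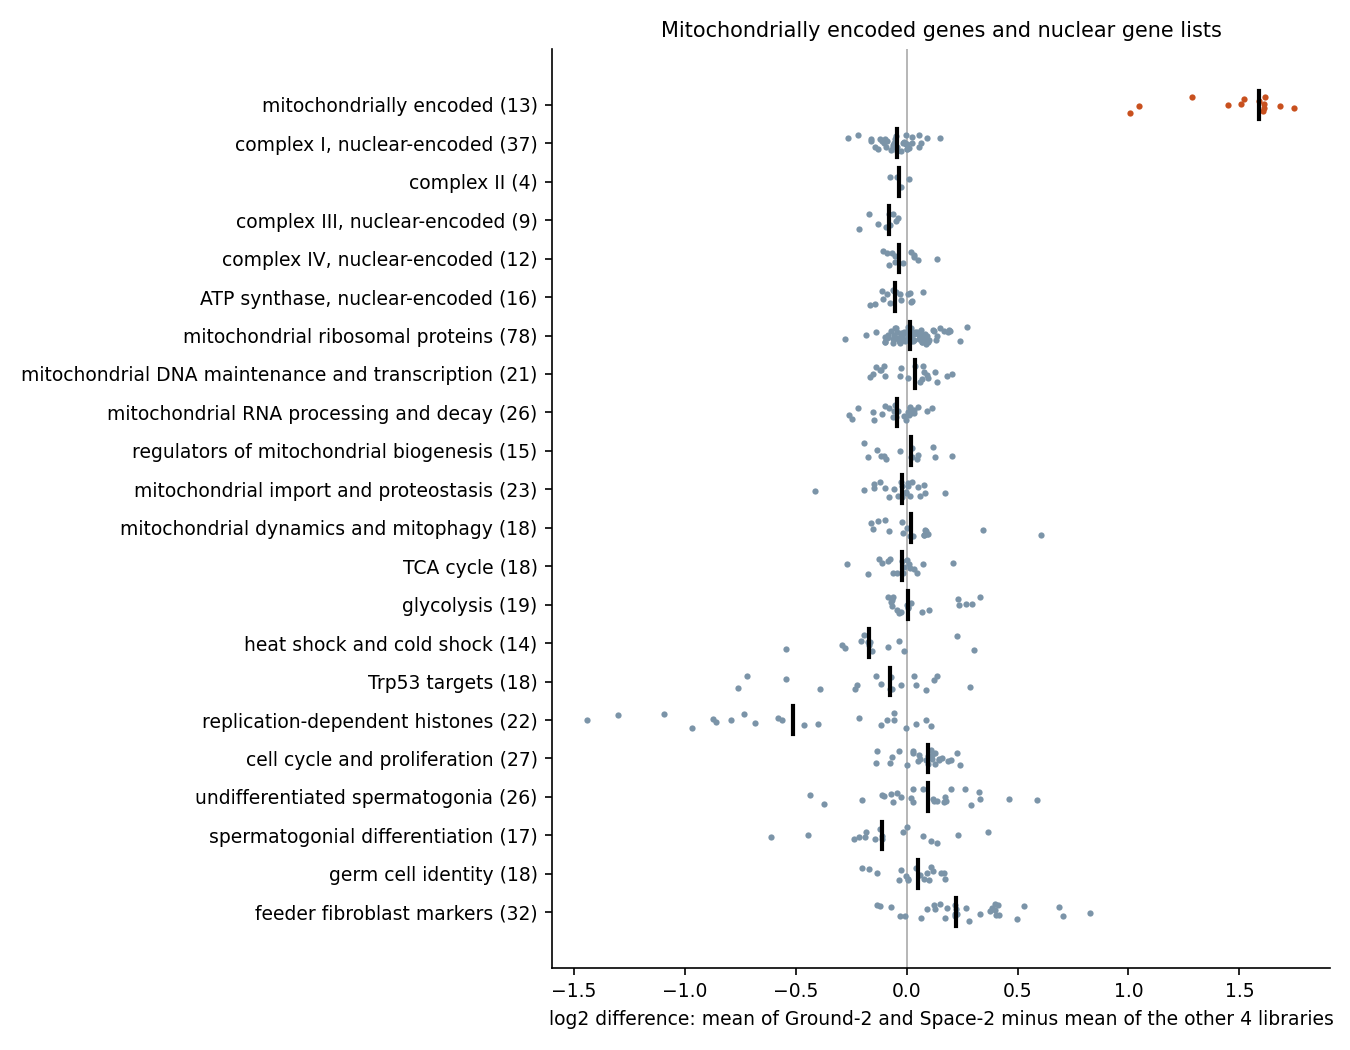
Difference of each gene (mean log2 CPM of Ground-2 and Space-2 minus that of the other 4 libraries) for the mitochondrial genes and 21 nuclear lists, with 1 point per gene, the number of genes past the filter in brackets and a black bar at the median. The 13 mitochondrial genes lie between 1.01 and 1.75, and the medians of the nuclear lists lie between -0.51 (histones) and 0.22 (feeder markers).

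Across the 15091 nuclear genes the differences were small, with 1% below -0.70 and 1% above 0.78. Of these genes, 1510 (10%) were above and 1588 (10.5%) below all others in both libraries of the pair, and 7234 (47.9%) lay inside the range of the other 4 in both. A difference of at least 0.5 in size together with being apart held for 254 higher genes (1.68%) and 196 lower ones (1.3%). The sign was the same within Ground and within Space for 68.3% of genes, and Pearson's r of the 2 within-site differences was 0.32 over genes, which are not independent and share 6 libraries. Genes of the lowest of 5 equal bins of GC content were more often apart and lower (15.2%) than those of the other 4 bins (8.45% to 10.3%).

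The other 4 libraries were not alike. By the SD of log2 differences over nuclear genes, the closest library to Ground-2 was Space-2 (0.302) and the closest to Space-2 was Ground-2. Ground-1 with Space-3 (0.244) and Ground-3 with Space-1 (0.315) formed 2 further couples across the storage sites. The other comparisons ran from 0.349 to 0.520. Pearson's r over the 1000 most variable nuclear genes, each centred on its mean, was only 0.006 for Ground-2 with Space-2. It was 0.57 for Ground-1 with Space-3, 0.39 for Ground-3 with Space-1 and -0.65 to -0.07 for the other comparisons. On the first principal component of nuclear genes, with 61.1% of the variance, the pair stood in the middle, at 5.96 and 4.48, between Ground-1 (18.3) and Space-3 (17.4) on one side and Ground-3 (-21.6) and Space-1 (-24.5) on the other. The second, with 14.5%, gave 11.9 for Ground-2, 6.98 for Space-2, 5.10 for Ground-3, -6.49 for Ground-1, -7.24 for Space-3 and -10.3 for Space-1. This is the order of the mitochondrial share. No mitochondrial gene entered, and the match, on 1 of several components of 6 libraries, was not tested. The fourth component, with 9.08%, placed Ground-2 (10.7) and Space-2 (-11.3) at opposite ends.

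**Figure D4:**
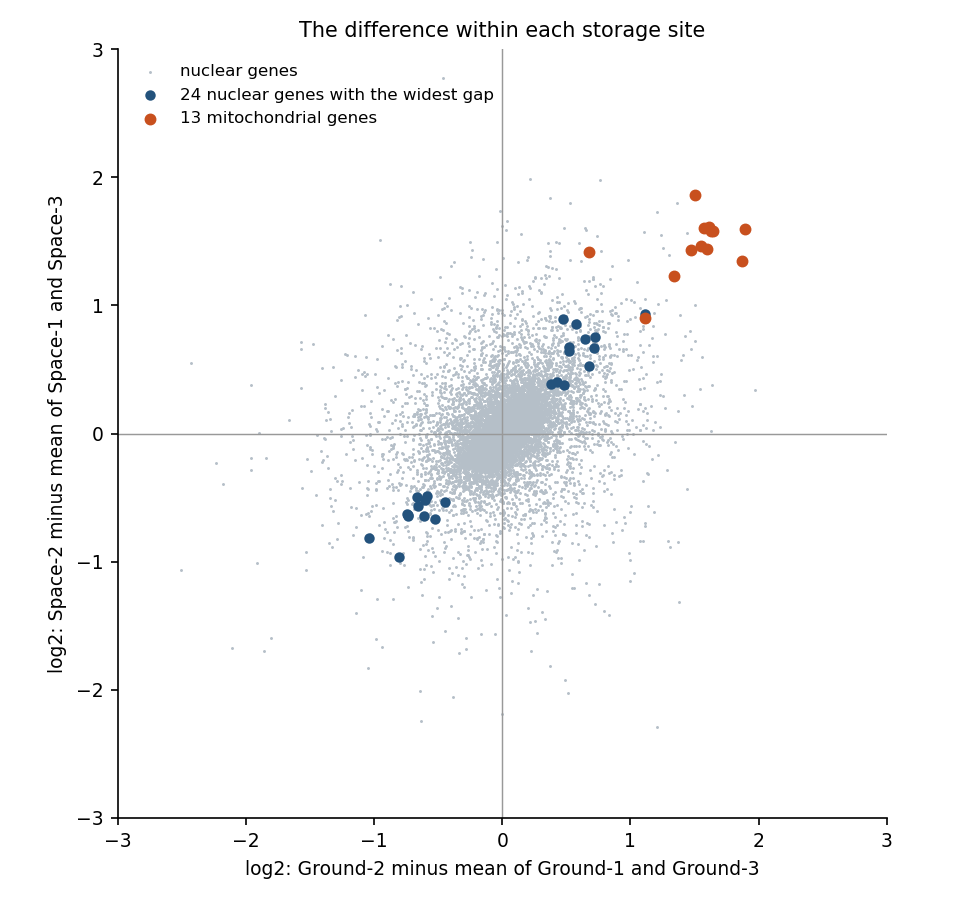
Difference within each storage site for the 15104 genes past the filter, as Ground-2 minus the mean of Ground-1 and Ground-3 (horizontal, log2) and Space-2 minus the mean of Space-1 and Space-3 (vertical, log2). The mitochondrial genes (orange) are positive on both axes, and the 24 nuclear genes with the widest gap (dark blue) reach 1.11 and -1.04 on the horizontal axis.

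The nuclear genes named next had the widest gap between the pair and the other 4 among genes with a mean of at least 5 CPM, so their separation follows from how they were picked. Vdr, the vitamin D receptor (chr15:97854425-97910630), was highest, at 13.5 CPM in Ground-2 and 11.9 in Space-2, and at 5.52, 6.93, 6.42 and 6.00 in Ground-1, Ground-3, Space-1 and Space-3. The difference was 1.02, or 2.03-fold. Nlrc5, the transactivator of MHC class I genes (chr8:94434356-94527272), was at 13.2 and 14.7 CPM in the pair and at 8.36, 7.497, 8.32 and 8.999 in the others. Insig1, which retains the sterol-regulated transcription factors in the endoplasmic reticulum (chr5:28071363-28078662), was at 262 and 261 CPM against 201, 189, 190 and 205. Among the 12 higher genes it had the largest counts, at 4307 or more per library.

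A further 8 higher genes had differences of 0.43 to 0.71. They were Oas1c of the 2'-5' oligoadenylate synthetase family, Cacna2d2 for a calcium channel subunit, Pde9a for a cGMP phosphodiesterase, Thy1 for a surface glycoprotein of fibroblasts and spermatogonia, Optn, Tmco4, the sugar-phosphate exchanger Slc37a1 and the phosphatase inhibitor Ppp1r1b. Slc37a1 was at 23.002 CPM in Ground-2 and 22.6 in Space-2, and at 17.6, 15.4, 17.1 and 17.6 in Ground-1, Ground-3, Space-1 and Space-3.

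Among the lower genes, Skor1, a transcriptional corepressor gene (chr9:63138170-63148961), was at 9.58 CPM in Ground-2 and 8.90 in Space-2, and at 13.8, 20.5, 18.9 and 16.04 in Ground-1, Ground-3, Space-1 and Space-3. Its difference was -0.88. Lin7b, a scaffold protein gene (chr7:45367891-45370583), had the largest difference of the 12, -0.93, at 3.25 and 3.20 CPM against 6.05, 7.63, 7.29 and 4.44. Zfc3h1, whose product directs polyadenylated nuclear RNA to the exosome (chr10:115384959-115432772), was at 45.5 and 43.7 CPM against 60.9, 63.0, 64.9 and 61.9. Hist1h1c, a linker histone gene (chr13:23738808-23740367), was at 8.47 and 9.64 CPM against 13.7, 13.2, 13.01 and 14.4.

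The remaining 8 lower genes, Ovgp1, Dalrd3, Dnhd1, Hoxb3os, Dtx3, Trim17, Ebf4 and Ceacam20, had differences of -0.69 to -0.54. Of the 24 genes, 13 share exon bases with another annotated gene, and for 11 of these at least 1 such gene is on the opposite strand, among them Nlrc5, Optn, Dalrd3, Hoxb3os and Lin7b. The strand setting of the counting was not given in the sources used here, so these values may include reads of the partner gene.

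**Figure D5:**
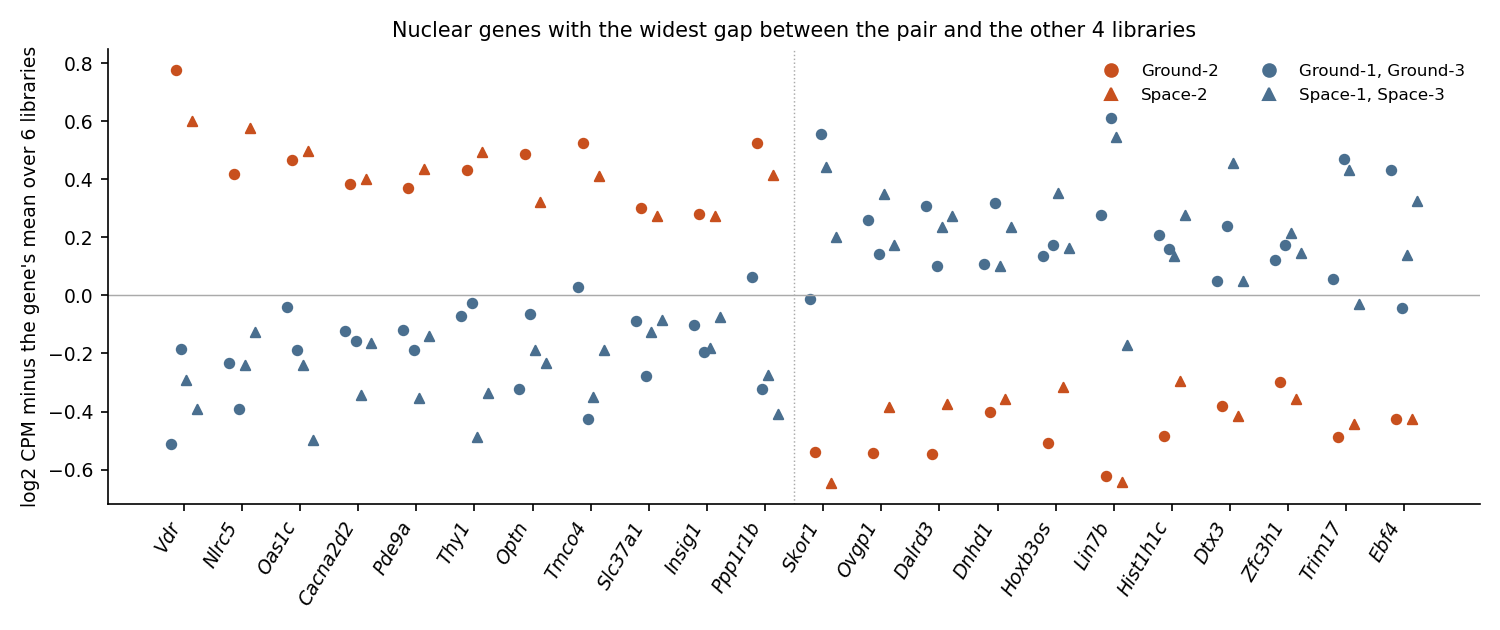
log2 CPM of the 11 nuclear genes with the widest gap in each direction, relative to each gene's mean over the 6 libraries, with 1 point per library (circles Ground, triangles Space, orange for Ground-2 and Space-2). The 11 genes left of the dotted line are higher in the pair, Vdr by the most (1.02), and the 11 on the right are lower, Lin7b by the most (-0.93).

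Germ cell genes as a group had a similar summed level in all libraries. For the counts that follow, 10% of all nuclear genes were apart and higher and 10.5% apart and lower. The 18 germ cell genes summed to 4960.4 CPM in Ground-2 and 4939 in Space-2, and to 4836, 4935, 4944 and 4870.2 in Ground-1, Ground-3, Space-1 and Space-3, so that Ground-2 was highest by a small margin and Space-2 lay inside the range. Dazl, a germ cell RNA-binding protein gene, was at 828 and 782 CPM against 852 to 964, and Uchl1 at 708 and 711 against 616 to 705. Of 26 genes of undifferentiated spermatogonia, 5 (19.2%) were apart and higher and 1 (3.85%) was apart and lower, with a median of 0.10 that became 0.0033 without Ground-3 and 0.013 without Space-1. Ret, the receptor subunit for GDNF, was at 449 CPM in Ground-2 and 458 in Space-2, and between 401 and 403 in the other 4. Bcl6b, a GDNF-responsive gene, followed the couples instead, at 222 and 218 CPM in the pair, 364 and 371 in Ground-1 and Space-3, and 59.1 and 57.6 in Ground-3 and Space-1. Of 17 genes of spermatogonial differentiation, 4 (23.5%) were apart and higher, including Kit (68.6 and 70.9 CPM against 52.5 to 65.3), and 5 (29.4%) were apart and lower, including Prss50 (8.57 and 7.78 against 10.9 to 14.2). The 27 cell cycle genes summed to 6522 CPM in Ground-2 and 6352 in Space-2. The sum was 6397 in Ground-3 and 6372 in Space-1, and 5827 in Ground-1 and 5830 in Space-3, so that Space-2 lay inside the range. The list had 5 members (18.5%) apart and higher and 0 apart and lower. Of these 5, Mcm2, Mcm3, Mcm4 and Mcm5 encode subunits of the replicative helicase. The other was Cdkn2c, a gene for an inhibitor of cyclin-dependent kinases, with the largest difference of the list, 0.24. It was at 3.30 and 3.52 CPM against 2.36 to 3.29.

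Markers of other cells were measured beside these. The 32 feeder fibroblast markers had a median of 0.22. Of these, 4 (12.5%) were apart and higher, namely Col1a1, Sparc, Col6a2 and Thy1, near the 10% of all nuclear genes, and 0 were apart and lower, where 10.5% of all were. The median was 0.03 within Ground and 0.54 within Space, and it became 0.09 without Space-1, 0.35 without Ground-1 and 0.35 without Ground-3. Their summed level was 1344 CPM in Ground-2 and 1347 in Space-2, beside 1334 in Ground-1, 1351.5 in Ground-3, 1000.8 in Space-1 and 1184 in Space-3. The pair thus overlapped the other 4 in this sum, and the Space libraries other than Space-2 were lowest. In bulk RNA, fewer cells of a type and less RNA per cell cannot be told apart, and the part of feeder cells in the differences was not tested.

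Of 12 macrophage markers 4 passed the filter, summing to 17.9 and 19.6 CPM in the pair and 14.8 to 25.03 in the others, while C1qa and C1qb were at 0 in all libraries. The 6 endothelial markers past the filter summed to 45.9 and 44.7 CPM against 38.7 to 58.7. The 5 Sertoli cell markers past the filter summed to 29.7 and 31.8 CPM against 27.8 to 37.1, and Fshr was at 0 in all libraries. Star alone passed among 6 Leydig cell markers, at 4.63 and 4.26 CPM against 3.95 to 5.04, and Lhcgr and Hsd3b1 were at 0.

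The stress-related lists had medians between -0.17 and 0.05. For the counts in these lists, 10% of all nuclear genes were apart and higher and 10.5% apart and lower. The 14 heat and cold shock genes had a median of -0.17, with 5 (35.7%) apart and lower and 2 (14.3%) apart and higher. Their summed level was 7516 CPM in Ground-2 and 7600.04 in Space-2, near the 7559 of Ground-1 and 7562 of Space-3, and 9318 in Ground-3 and 9381 in Space-1. Hspa8, the constitutive chaperone, was at 1148 CPM in Ground-2 and 1112 in Space-2, against 1189 to 1379. The 2 higher members were the cold-inducible RNA-binding protein genes Rbm3, at 77.1 and 75.9 CPM against 59.1 to 66.0, and Cirbp, at 225 and 222 against 172 to 208. Of 18 targets of the damage-response factor Trp53, 7 (38.9%) were apart and lower and 2 (11.1%) were apart and higher. Bbc3, the gene of the pro-apoptotic protein PUMA, was at 3.99 and 4.96 CPM against 6.23 to 8.65, and Btg2 at 77.9 and 78.9 against 94.2 to 140.0. Mdm2, a target of the same factor, was above the others at 190.4 and 190.1 CPM against 175 to 182.

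The other stress lists were mixed. Read against the same 10% and 10.5%, the integrated stress response had 2 of 19 genes (10.5%) apart and higher and 4 (21.1%) apart and lower, with a median of 0.03. The oxidative stress response had 3 of 23 (13.04%) and 2 of 23 (8.7%), with a median of -0.04, and apoptosis had 5 and 5 of 19 (26.3% each), with a median of 0.05. The 80 cytosolic ribosomal protein genes had a median of -0.02. Of them, 63 lay inside the range of the other 4 in both libraries of the pair, where 47.9% of all nuclear genes did. Replication-dependent histones had the lowest median of the lists, -0.51. Of 67 listed 22 passed the filter, and 7 of these (31.8%) were apart and lower and 0 apart and higher, at a summed level of 26.9 CPM in Ground-2 and 27.0 in Space-2 against 35.2 to 42.7 in the others. This median rested on genes with few counts and was -0.11 over the 9 with at least 10 counts in every library. Among 15 noncoding RNAs, H19, an imprinted transcript, was apart and higher at 172 and 178 CPM against 123 to 137.

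Set against the labels' own comparison, the pair contributed 1 library to each group. The mitochondrial share averaged 6.76% ± 4.31 over the Ground libraries and 4.15% ± 2.58 over the Space libraries (SD, 3 libraries each). The difference of -2.62 points was smaller than the SD of the Ground libraries and about as large as that of the Space libraries (2-sided exact permutation test over 20 assignments, p = 0.5, where 0.1 is the smallest value possible). All 13 mitochondrial genes had lower estimates in Space, with log2 changes of -1.20 to -0.39. By edgeR's quasi-likelihood test 0 of the 13 passed the Benjamini-Hochberg threshold of 0.05, the smallest adjusted p was 0.999924, and 0 had an unadjusted p under 0.05. Over all 15104 genes 0 were called (0%), and 92 (0.609%) had an unadjusted p under 0.05, while DESeq2 called 0 with 45.

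That comparison depended on which libraries were present. The median log2 change of the 13 genes was -0.77 with all 6 libraries, -0.09 without Ground-2 and -1.51 without Space-2. With Ground-2 and Space-2 both left out it was -0.76. It was -1.14 without Ground-1, -0.89 without Ground-3, -0.50 without Space-1 and -0.52 without Space-3. In each of these fits edgeR called 0 of the 13. An unadjusted p under 0.05 was found for 8 without Space-2, 2 without Ground-1, 2 without both libraries of the pair and 0 in the rest. The study speaks of 3 lines of GS cells, but no label gives the line of a library or says that replicates came from separate cultures or animals. These p-values therefore measure the spread between the libraries, whatever each one is.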

How the data were processed

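Total RNA of 6 GS cell samples was sequenced after thawing. Per the labels the libraries were made with the Illumina Stranded mRNA Prep kit, whereas the methods of the study name another kit and sequencer. The authors deposited raw counts, whole numbers of reads per gene and library, for 32285 gene identifiers. The methods name cutadapt for trimming and HISAT2 with mm10 and GENCODE M21 for alignment, and the submitters' processing notes add HISAT2 2.2.1, cutadapt 4.1, bcl2fastq 2.20 and HTSeq 2.0.2. Strand setting and multiple matches were not given in the sources used here. GENCODE M21 held 32235 of the identifiers.

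Totals ranged from 19015985 to 24110916 counts. Intervals of shares (Wilson, 95%) cover counting error only. Counts were analysed with edgeR 4.0.16 in R 4.3.3: filterByExpr by storage site (minimum count 10, minimum total 15) left 15104 genes, of which 13 are mitochondrial, followed by TMM scaling, with log2 CPM computed with a prior count of 2. Space was tested against Ground with the quasi-likelihood F test, Benjamini-Hochberg adjusted over all genes at 0.05, and DESeq2 1.42.0 was an alternative. The pair against the other 4 was not tested. Nuclear copies were found with blastn 2.17.0 (expectation limit 1e-5, word size 28) between GENCODE M21 transcripts. No 2 libraries were copies of each other: the median chi-square of counts was 1.56 times its expectation for the closest, Ground-1 and Space-3, and 2.53 times for Ground-2 and Space-2. The scripts were tested on simulated counts.

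Genes named were all 13 genes with names starting mt-, the 12 nuclear genes in each direction with the widest gap among those of at least 5 CPM, and of each list the 3 members with the highest CPM and the members with the largest and smallest difference. The nuclear gene of at least 1 CPM with a transcript that aligned to a mitochondrial gene was Cep295, with a difference of -0.06. It aligned to the tRNA gene mt-Ty over 57 bases and to none of the 13. A few genes that meet these criteria are left out here. Other list members named were chosen after their values were seen. The pair, the rule and the gene lists were chosen with earlier results of these data known, and 3 lists (cholesterol synthesis and uptake, interferon response, antigen presentation) were written after the values had been seen. Alternatives were other scalings, filters and prior counts, each storage site alone, a replicate block and leaving out each library.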

Additional observations from a re-analysis of the deposited data

Results flagged for a closer look

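For 8 named genes Ground-2 and Space-2 moved in opposite directions within their storage sites, each from both of the other libraries of its site. Over all nuclear genes the sign was the same within both sites for only 68.3%, so opposite signs were common. How many of all genes also moved from both other libraries of each site was not counted. The difference between the sites was not tested, and each value rests on 1 library against 2. Fas, a death receptor gene, had a log2 difference of -0.45 within Ground and 1.02 within Space, and Cd14, a macrophage marker, had 0.63 and -0.72. Uqcr10 of complex III had 0.077 and -0.16, and Pecam1, an endothelial marker, had 0.079 and -0.18. Sdhc had -0.12 and 0.030, and Gbp2, an interferon-induced GTPase gene, had -0.037 and 0.14. Ndufs1 had 0.022 and -0.023, and Sdha had 0.035 and -0.016. Fas and Cd14 were under 1.5 CPM in every library.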

How the results depend on the processing

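All 13 mitochondrial genes stayed above the other libraries under every alternative that kept them. The pair was picked for this contrast. Leaving out a library or taking 1 site alone could hardly undo it, since fewer libraries had to be cleared, so nothing is read from this. Their median difference ran from 1.19 without Ground-2 to 1.90 without Space-2. The difference of the mitochondrial share, 5.79 points, was 3.60 without Ground-2 and 7.98 without Space-2. For the share of the 5 genes that have no near-identical copy, an alternative chosen after seeing the data, it was 3.07. That share is smaller in every library, since mt-Co1 and the other genes with a copy are left out, so the 3.07 and 5.79 points are not on 1 scale. Nuclear differences nearer 0 did change sign. Of 35 list medians 18 did so under at least 1 alternative, of which that of Sertoli cell markers, -0.095, was reported farthest from 0. The macrophage markers went from -0.07 to 0.25 within Ground alone, and germ cell identity from 0.05 to -0.03 with total counts. Of 190 named genes 50 changed sign, of which Ptprc had the largest reported difference, 0.43. Counts of nuclear genes depended on the settings. The 254 higher genes became 165 with total counts, 650 without a filter, 651 within Ground alone and 738 within Space alone. Leaving out 1 library gave 264 to 671, with 442 without Ground-1, 542 without Ground-2, 671 without Space-2 and 413 without Space-3. The 196 lower genes became 569 without a filter, 122 with at least 10 counts in every library, 583 within Ground alone and 519 within Space alone. Leaving out 1 library gave 240 to 533, with 520 without Ground-2, 311 without Ground-3, 316 without Space-1 and 533 without Space-2. With total counts, 570 genes were above and 3223 below all others, instead of 1510 and 1588, and the median of all nuclear genes was -0.07. Fewer libraries to clear make more genes apart, and for the other changes the cause was not tested. The number of lists with a median over 0.1 from that of all nuclear genes, 4, became 7 without a filter and 7 within Space alone, and 5 to 9 when leaving out 1 library, with 9 without Ground-3, 7 without Space-1 and 8 without Space-2.

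Space against Ground gave 0 genes under all 14 alternatives. With the replicate number as a block, 0 genes were called, 63 had an unadjusted p under 0.05 and 11 of them were mitochondrial, and the sign-flip permutation test of the share, exact over the pairs, gave p = 0.25. Deviations of same-numbered libraries correlated at -0.48, 0.28 and -0.60 for numbers 1, 2 and 3. The value was positive for number 2 alone, and such values cannot show how the libraries were numbered. Genes with few counts limit the precision: mt-Atp8, mt-Nd3 and mt-Nd4l had under 10 counts in at least 1 library.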

Other observations

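The following 3 lists were written after the values had been seen, because members of each were among the genes with the widest gap, so their counts describe the pair and support nothing. Of all nuclear genes, 10% were apart and higher and 10.5% apart and lower. Of 23 genes for cholesterol synthesis and uptake, 13 (56.5%) were apart and higher in Ground-2 and Space-2 and 0 were apart and lower, with a median difference of 0.17. Dhcr7, the last enzyme of the pathway to cholesterol, was at 147 CPM in Ground-2 and 139 in Space-2, and at 122 to 126 in the other 4.

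Of 25 interferon response genes 8 (32%) were apart and higher and 0 apart and lower, with a median of 0.22. Ifih1, a sensor of double-stranded RNA, was at 13.95 and 14.97 CPM against 10.7 to 12.1. Irf1 followed the couples, at 318 and 313 CPM in the pair, 181 and 192 in Ground-1 and Space-3, and 379 and 361 in Ground-3 and Space-1. Of 20 antigen presentation genes 7 (35%) were apart and higher and 0 apart and lower, with a median of 0.24. Among them B2m, the light chain of MHC class I, was at 32.6 and 30.6 CPM against 25.2 to 27.5, and the peptide transporter gene Tap1 at 16.5 and 19.08 against 11.1 to 14.9. Tapbp was not apart, at 236 and 255 CPM beside 222 and 225 in Ground-1 and Space-3 and 381 and 385 in Ground-3 and Space-1.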
